A study of Homo sapiens with 12 samples.

Results

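Cells with exogenous MEIS1 (LV-MEIS1) were compared with Control cells, both derived from CWR-22Rv1 and both with HOXB13 untargeted, by RNA-seq of 3 libraries each. These are 6 of the 12 libraries of the study and were chosen by their labels, with all 13951 listed genes. CWR-22Rv1 is an established prostate carcinoma line of epithelial cells, taken from a CWR22 xenograft that had regrown in castrated mice. Control cells carried Cas9 without a guide RNA. LV-MEIS1 cells were transduced with a lentivirus for MEIS1, and the labels do not say whether they also carried Cas9. Both lines were kept in RPMI medium with fetal bovine serum and puromycin and were harvested after 48 h. The other 6 libraries come from a matching pair made from pooled clones after CRISPR/Cas9 was aimed at HOXB13, labelled HOXB13ko and HOXB13ko-LV-MEIS1, and they are used here only beside named genes. Each line was derived by itself, so that replicates measure the spread between samples of a line, which may be technical, and the effect of MEIS1 and other differences of vector or derivation cannot be told apart.

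MEIS1 encodes a homeodomain protein of the TALE class, which binds DNA together with PBX and HOX proteins and thereby takes part in setting regional identity during development. HOXB13 is the HOX protein of the prostate and is made by luminal cells throughout life. MEIS proteins are present in benign prostate epithelium and are often reduced in prostate cancer, and the comparison asks which genes change when MEIS1 is added to a line that has HOXB13.

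MEIS1 mRNA (ENSG00000143995, GRCh38 chromosome 2, 66433452 to 66573869) was 4.24, 4.45 and 4.05 CPM in the Control libraries and 49.6, 46.8 and 45.8 CPM in the LV-MEIS1 libraries. HOXB13 mRNA was 185, 215 and 187 CPM in Control and 152, 150.1 and 151 CPM in LV-MEIS1, a log2 fold change of -0.37 ± 0.07 (SE, 3 libraries per group) that did not pass limma's treat test (adjusted p = 1) and passed limma's eBayes test against no change (adjusted p = 4.9e-04). Depth estimates from the steps between low values were 17200000 to 27000000 reads per library, so that 3 reads are worth 0.111 to 0.175 CPM. All 9 luminal markers were listed, with a summed level of 3253 to 3385 CPM in Control and 2733 to 2797 CPM in LV-MEIS1, while none of 4 basal and none of 4 endothelial markers and 1 of 5 leukocyte markers were listed. Of 12 fibroblast and smooth muscle markers 6 were listed, and their sum was 43.9 to 47.3 CPM in Control and 110.7 to 116.3 CPM in LV-MEIS1. DCN, LUM and COL1A1 were the members called higher. ACTA2, the smooth muscle actin, was 8.82, 8.68 and 9.15 CPM in Control and 4.704, 6.11 and 6.05 CPM in LV-MEIS1 (-0.62 ± 0.12, treat adjusted p = 1, eBayes 7.5e-04), lower in every LV-MEIS1 library. PDGFRB, a receptor of mural cells, was 0.988, 1.12 and 2.12 CPM in Control and 0.277, 0.187 and 0.333 CPM in LV-MEIS1 (-1.28 ± 0.21, treat adjusted p = 0.061, eBayes 2.2e-04), also lower in each, and it was called lower with a pseudocount of 0.1 (-1.99) and without Control replicate 1 (-1.43). COL6A3 overlapped between the groups. COL1A2, COL3A1, PDGFRA, THY1, FAP and MYH11 were not listed, and the part of such cells in the results was not tested.

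A gene was called when its change exceeded 1.5-fold by limma's treat test on log2(CPM + 0.5), with a Benjamini-Hochberg adjusted p under 0.05 over all genes. By this rule 244 genes (1.75%) rose and 313 (2.24%) fell, 557 in all (3.99%). At an unadjusted p under 0.05 there were 906. Every called gene had all 3 LV-MEIS1 libraries on the same side of all 3 Control libraries, which was the case upward for 26.3% and downward for 25.1% of all genes. The called genes changed by at least 2-fold in 468 cases and by at least 4-fold in 96, of which 29 rose and 67 fell. The median size of the log2 fold change was 1.28 among the higher and 1.40 among the lower genes. Few genes appeared from near absence, as 10 of the 244 had a Control mean under 1 CPM, while 56 of the 313 lower genes had an LV-MEIS1 mean under 1 CPM.

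**Figure D1:**
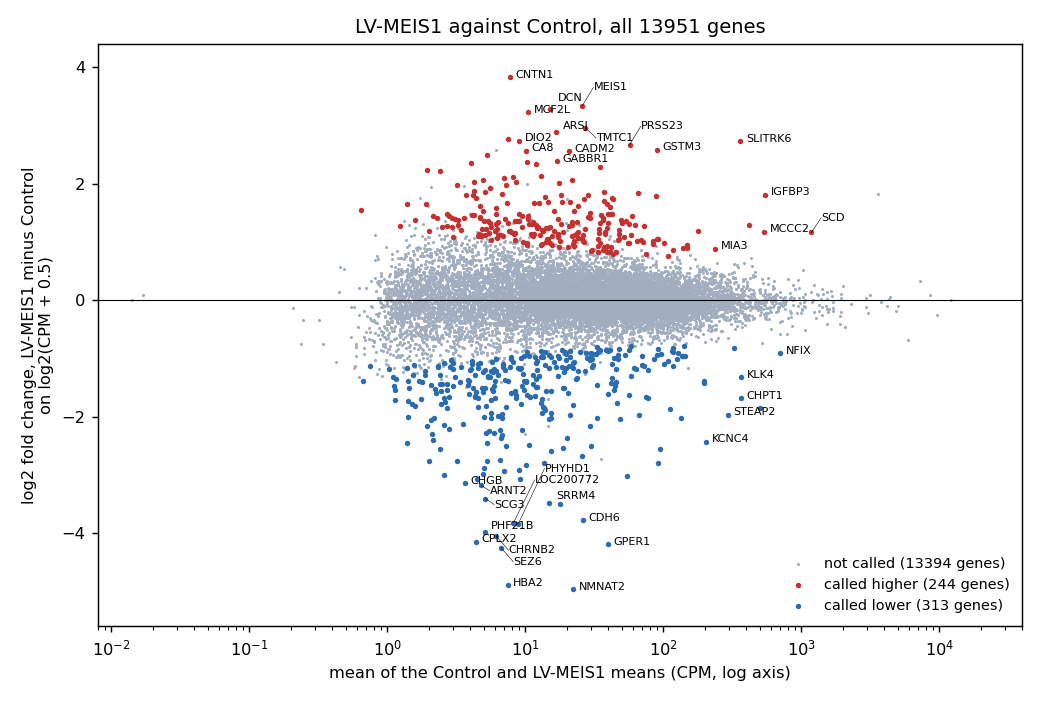
Each point is a gene, placed by the mean of the Control and LV-MEIS1 mean CPM (log axis) and by its log2 fold change, LV-MEIS1 minus Control. The 244 genes called higher are red and the 313 called lower are blue, and the labels mark most of the genes with the largest folds and the largest changes in CPM. The lower genes reach larger sizes, with 67 past 4-fold against 29 of the higher ones.

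Genes were grouped into 37 lists by function, and the plot of these lists shows the share of each that was called. Some lists share genes, so their counts are not separate. Over all genes the median log2 fold change was 0.007, and lists were read against this median and against the shares of 1.75% and 2.24%. Neuroendocrine genes had the lowest median, -1.12, followed by androgen response genes at -0.41. Enzymes of steroid and glucuronide metabolism had the highest, 0.67. No gene was called among 32 G1 cyclins, kinases and inhibitors, 52 S phase genes, 54 mitosis genes and 72 heat shock and folding genes, whose medians were -0.07, -0.11, 0.06 and -0.06. With limma's eBayes test against no change, which called 23.2% of all genes higher and 21.3% lower, the same lists had 6, 6, 15 and 12 genes higher and 9, 16, 9 and 22 lower. MKI67, the standard proliferation antigen, was 677, 615 and 652 CPM in Control and 561, 718 and 650.3 CPM in LV-MEIS1, and the groups overlapped.

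**Figure D2:**
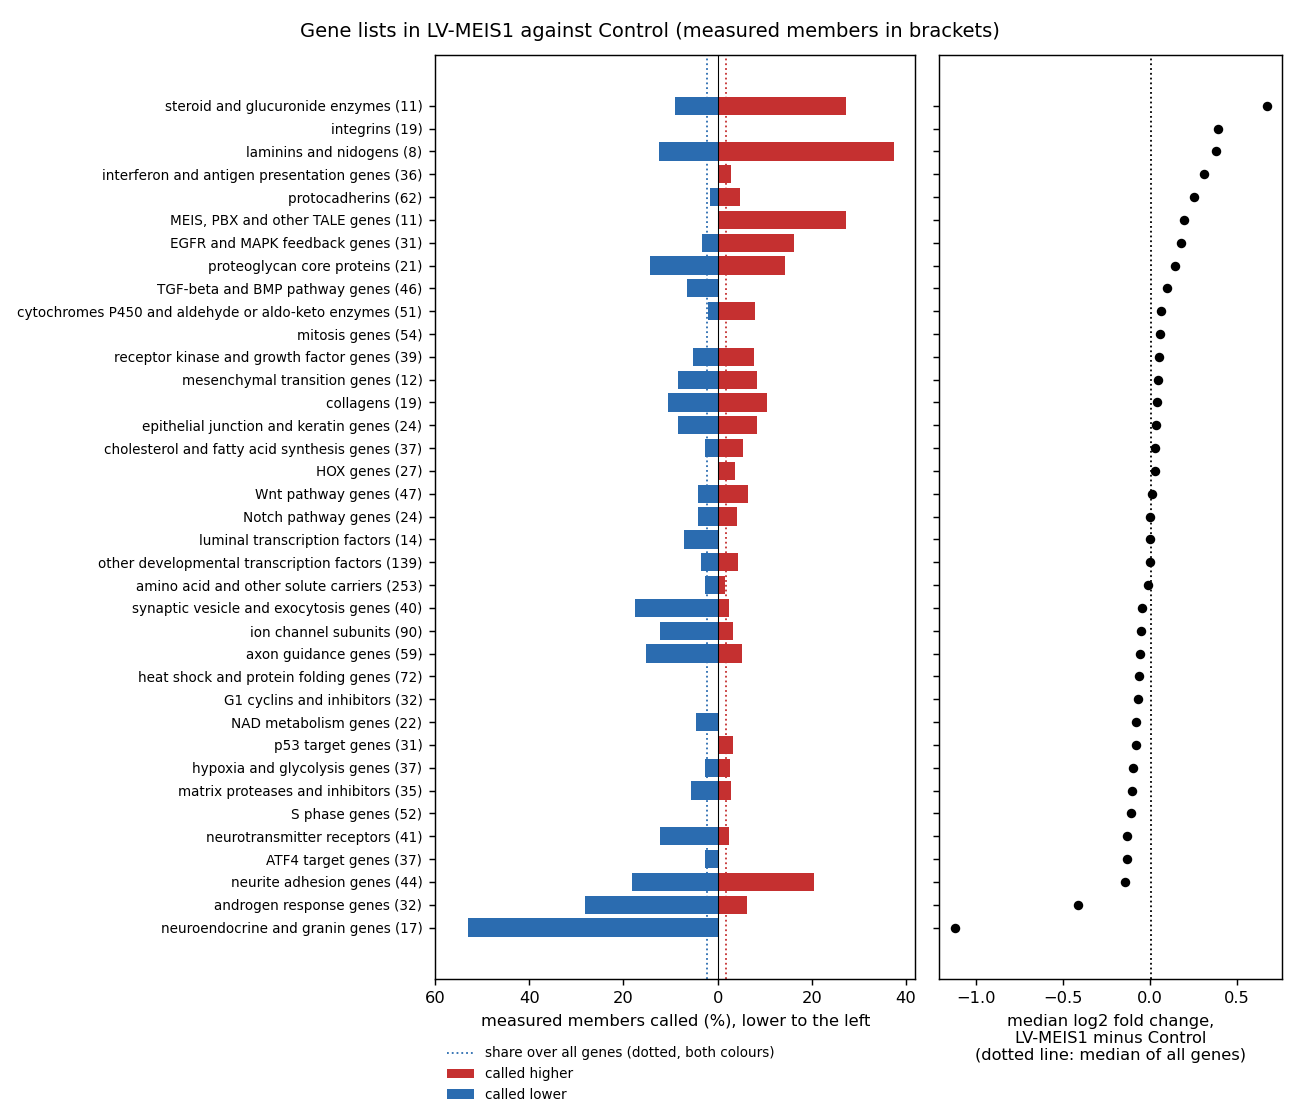
Left, the percentage of the measured members of each list that was called higher (red, to the right) or lower (blue, to the left) in LV-MEIS1 against Control, with dotted lines at the shares over all genes, 1.75% and 2.24%. Right, the median log2 fold change of all measured members. Neuroendocrine and granin genes stand at the low end with a median of -1.12, and the integrins and the lists of G1, S phase, mitosis and folding genes have no bar.

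Neuroendocrine genes were mostly lower. Of 17 listed members 9 fell and none rose, and the count of lower genes was 9 without any 1 library as well. Granins and related proteins are packed into dense-core secretory vesicles, and their RNAs mark the neuroendocrine cells that are scattered in prostate epithelium and that can emerge in treated prostate cancer. SRRM4, a splicing factor that turns on neuronal microexons and inactivates the repressor REST, was 26.8, 27.4 and 29.3 CPM in the Control libraries and 1.45, 2.02 and 2.84 CPM in the LV-MEIS1 libraries. Its log2 fold change was -3.48 ± 0.16 (SE, limma treat adjusted p = 3.7e-09), a 13.2-fold lower mean. SCG3, which sorts granins into vesicles, was 10.6, 9.64 and 9.18 CPM in Control and 0.492, 0.4599 and 0.452 CPM in LV-MEIS1. CHGB, the granin chromogranin B, was 6.29, 6.93 and 7.58 CPM in Control and 0.397, 0.364 and 0.268 CPM in LV-MEIS1. These 3 genes were low in every LV-MEIS1 library and the groups did not overlap.

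Other secretory genes of this list moved the same way. VGF, the precursor of several neuropeptides, was 90.8, 107 and 94.8 CPM in the Control libraries and 13.2, 9.37 and 12.5 CPM in the LV-MEIS1 libraries, a log2 fold change of -3.02 ± 0.12 (limma treat adjusted p = 1.9e-09). SYP, a vesicle membrane protein and a routine neuroendocrine stain, was 17.03, 17.02 and 14.4 CPM in Control and 1.24, 1.85 and 2.14 CPM in LV-MEIS1 (-2.91 ± 0.15, adjusted p = 2.4e-08). SNAP25, a SNARE of vesicle fusion, went from 4.64 ± 0.71 to 1.36 ± 0.35 CPM (SD) and SYT4, a vesicle synaptotagmin, from 145 ± 9.23 to 70.01 ± 4.43 CPM. SEZ6, a neuronal surface protein that is also a neuroendocrine tumour antigen, and CHRNB2, the β2 subunit of neuronal nicotinic receptors, completed the 9, with log2 fold changes of -4.25 and -4.06. CHRNB2 was 12.9, 11.8 and 11.6 CPM in Control and 0.0553, 0.516 and 0.259 CPM in LV-MEIS1, below the value of 3 reads in 1 LV-MEIS1 library.

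None of the other 8 members was called. In the list 4 members had all LV-MEIS1 libraries above all Control libraries, a case seen for 26.3% of all genes. By eBayes 4 were higher, and the highest log2 fold change in the list was 0.92. REST, the repressor of neuronal genes, was 119, 102 and 114 CPM in Control and 140.3, 156 and 137 CPM in LV-MEIS1, and CPE, a carboxypeptidase that trims neuropeptides, was 82.1, 77.5 and 76.3 CPM in Control and 99.2, 96.6 and 97.8 CPM in LV-MEIS1. Both were higher in every LV-MEIS1 library, by 0.37 ± 0.06 and 0.31 ± 0.05 on the log2 scale, and neither was called (adjusted p = 1 for each with limma treat, 3.1e-04 and 1.2e-04 with eBayes). ENO2 differed by -0.20 ± 0.05 and SCG2 by 0.14 ± 0.23, the latter with overlapping groups. CHGA, INSM1 and NEUROD1, defining neuroendocrine markers, were not listed in any library, so the list describes part of the programme only. In bulk libraries, fewer cells of a type and less RNA per cell cannot be told apart.

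The start regions of SRRM4 and SCG3 are shown because both hold TGACAG, the hexamer that MEIS proteins are known to bind. The windows are 250 bases before to 50 after the RefSeq start in GRCh38.p14, at chr12:118981291-118981590 and chr15:51681253-51681552, both on the plus strand, and capitals mark the hexamer or its reverse complement.
SRRM4: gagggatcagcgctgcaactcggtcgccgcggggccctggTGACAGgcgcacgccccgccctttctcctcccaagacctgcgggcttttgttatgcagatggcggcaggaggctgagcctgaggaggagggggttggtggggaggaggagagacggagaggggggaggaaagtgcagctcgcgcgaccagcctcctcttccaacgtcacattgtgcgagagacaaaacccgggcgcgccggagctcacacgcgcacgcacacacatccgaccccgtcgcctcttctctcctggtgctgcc
SCG3: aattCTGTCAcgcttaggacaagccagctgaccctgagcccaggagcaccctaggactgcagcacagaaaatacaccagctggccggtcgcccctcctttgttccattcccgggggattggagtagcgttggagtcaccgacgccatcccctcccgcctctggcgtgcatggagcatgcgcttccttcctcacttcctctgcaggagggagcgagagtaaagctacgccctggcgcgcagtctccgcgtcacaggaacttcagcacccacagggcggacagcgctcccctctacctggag
The leftmost base of the match lies at -210 in SRRM4 on the plus strand and at -246 in SCG3 on the minus strand, counted back from the start. Read on both strands, TGACAG was in 33 of 239 lower genes with a window in the table (13.8%), in 18 of 187 higher genes (9.63%) and in 1453 of all 10998 listed genes with a window (13.2%). Of the 30 genes with the largest folds 17 had a window and 4 held the hexamer. CCAATAAA and CTCGTAAA, the letters known for HOXB13, do not overlap the hexamer and were in 0.709% and 0.0727% of all listed genes and in none of the called ones. A match is a description of these letters and no measurement of binding.

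Among called genes of the synaptic release machinery falls outnumbered rises, with 7 of 40 lower and 1 higher and a median of -0.05. The list as a whole was nearly balanced, with 14 members above all Control libraries in every LV-MEIS1 library and 14 below. By eBayes 10 were higher and 13 lower. SYP, SNAP25 and SYT4 among the 7 were already counted in the neuroendocrine list. CPLX2, a complexin that clamps SNARE complexes, was 8.08, 8.43 and 9.64 CPM in the Control libraries and 0.0553, 0 and 0 CPM in the LV-MEIS1 libraries, below the value of 3 reads in each of the latter and at least 52.4-fold lower. SYT7, a calcium sensor of slow release, was 46.7, 50.1 and 49.4 CPM in Control and 10.3, 10.3 and 10.8 CPM in LV-MEIS1, a log2 fold change of -2.17 ± 0.07 (limma treat adjusted p = 7.0e-10). UNC13A, which primes vesicles, went from 65.9 ± 3.21 to 22.4 ± 1.81 CPM (SD) and STX1A, a plasma membrane SNARE, from 16.4 ± 0.95 to 6.43 ± 0.27 CPM. The member that rose was STXBP6, a protein that competes for SNARE assembly, from 10.3 ± 1.02 to 26.2 ± 1.04 CPM, and a further member was called higher without LV-MEIS1 replicate 1 (2 in all). The other 32 members were not called.

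**Figure D3:**
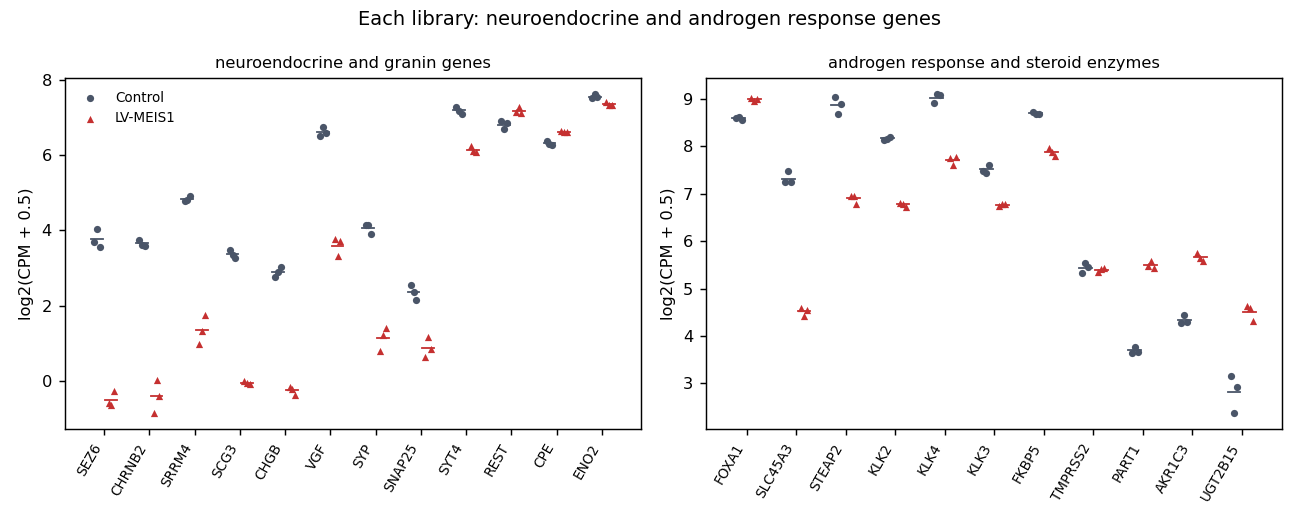
Values of each library as log2(CPM + 0.5), with Control as grey circles, LV-MEIS1 as red triangles and bars at the group means. On the left, 9 neuroendocrine genes lie lower in all 3 LV-MEIS1 libraries, whereas REST and CPE lie slightly higher and ENO2 slightly lower. On the right, TMPRSS2 overlaps between the groups, FOXA1 lies slightly higher, SLC45A3 to FKBP5 lie lower, and PART1, AKR1C3 and UGT2B15 lie higher.

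Receptors for neurotransmitters followed the same direction in 5 of 41 cases and rose in 1. Among the 5, CHRNB2 is also in the neuroendocrine list and CHRNA2 in the androgen response list. GABRB2, a subunit of the GABA-A chloride channel, was 57.04, 46.7 and 48.8 CPM in the Control libraries and 9.795, 8.25 and 7.62 CPM in the LV-MEIS1 libraries, with a log2 fold change of -2.51 ± 0.09 (limma treat adjusted p = 6.5e-10). The muscarinic receptor CHRM4 went from 4.08 ± 0.0298 to 0.858 ± 0.31 CPM (SD). GABBR1, a subunit of the metabotropic GABA-B receptor, went the opposite way, from 5.13 ± 0.80 to 28.99 ± 3.66 CPM, with the widest error of the genes with the largest folds (2.39 ± 0.40, adjusted p = 0.0084), and it was not called with a pseudocount of 0.1.

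Of 90 ion channel subunits 11 fell and 3 rose, with a median of -0.05. KCNC4, a voltage-gated potassium channel, had the largest drop in CPM among them, with 360.3, 339 and 331 CPM in the Control libraries and 54.8, 70.4 and 65.2 CPM in the LV-MEIS1 libraries. KCNT1, a sodium-activated potassium channel, went from 8.96 ± 0.76 to 1.45 ± 0.19 CPM (SD) and KCNN2, a calcium-activated one, from 10.5 ± 1.53 to 2.24 ± 0.17 CPM. SCNN1A, the α subunit of the epithelial sodium channel, fell from 71.2 ± 3.93 to 20.6 ± 1.01 CPM (log2 fold change -1.76 ± 0.06, limma treat adjusted p = 1.4e-09). Inward rectifiers were divided. KCNJ8, a pore of ATP-sensitive channels, was 20.2, 21.7 and 18.4 CPM in Control and 63.7, 59.2 and 62.4 CPM in LV-MEIS1, and KCNJ3, a G-protein-gated subunit that pairs with others at the membrane, was 15.3, 11.5 and 19.1 CPM in Control and 40.8, 41.6 and 41.97 CPM in LV-MEIS1, and both rose. KCNJ9, of the same G-protein-gated kind, fell from 2.83 ± 0.19 to 0.905 ± 0.37 CPM, a call that was lost without any 1 of the Control libraries (adjusted p = 0.0721, 0.12 and 0.139 for replicates 1 to 3), LV-MEIS1 replicate 1 (0.207) or LV-MEIS1 replicate 3 (0.065). P2RX5, an ATP-gated cation channel, was 8.33, 9.57 and 10.7 CPM in Control and 1.203, 0.528 and 1.31 CPM in LV-MEIS1, with a readthrough transcript at the same locus that makes its value uncertain.

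Adhesion molecules of the neurite surface moved in both directions. Of 44 listed 9 rose and 8 fell, 38.6% called, with a median of -0.14. CNTN1, a contactin held at the membrane by a lipid anchor, had the highest log2 fold change of all called genes, and its window is shown because it holds TGACAG on the minus strand with its leftmost base at -85 (GRCh38.p14 chr12:40827934-40828233, plus strand, capitals as above).
CNTN1: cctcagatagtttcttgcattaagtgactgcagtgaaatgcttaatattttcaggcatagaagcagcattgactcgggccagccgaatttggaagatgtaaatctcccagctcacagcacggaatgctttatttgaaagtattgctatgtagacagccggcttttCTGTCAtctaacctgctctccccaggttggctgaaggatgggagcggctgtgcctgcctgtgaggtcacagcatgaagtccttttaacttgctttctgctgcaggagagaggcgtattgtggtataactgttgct
CNTN1 was 0.705, 0.699 and 0.372 CPM in the Control libraries and 14.9, 14.3 and 15.4 CPM in the LV-MEIS1 libraries, so that it was near absence in Control and clearly present in all 3 LV-MEIS1 libraries. SLITRK6, a leucine-rich repeat protein that promotes neurite outgrowth and is found on bladder and other epithelia, was 96.3, 89.4 and 97.01 CPM in the Control libraries and 632, 663 and 597 CPM in the LV-MEIS1 libraries. Its log2 fold change was 2.74 ± 0.06 (limma treat adjusted p = 3.0e-12), a 6.69-fold rise of an abundant transcript. CADM2, a synaptic cell adhesion molecule, was 6.22, 5.49 and 5.205 CPM in Control and 31.2, 38.6 and 37.7 CPM in LV-MEIS1, and FLRT3, which binds latrophilins and UNC5 receptors, was 3.896, 3.16 and 3.86 CPM in Control and 21.97, 20.01 and 19.1 CPM in LV-MEIS1. DSCAM, a homophilic adhesion molecule of neurites, went from 2.95 ± 0.42 to 8.16 ± 1.13 CPM (SD). The groups did not overlap for any of these.

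Relatives of the same families fell. SLITRK4 was 7.699, 6.15 and 8.31 CPM in Control and 1.41, 2.25 and 1.52 CPM in LV-MEIS1, the reverse of SLITRK6, and FLRT2 was 14.4, 9.61 and 12.2 CPM in Control and 4.05, 3.81 and 3.11 CPM in LV-MEIS1, the reverse of FLRT3. TENM2, a teneurin that binds latrophilins across the synapse, was 20.1, 20.02 and 20.4 CPM in Control and 6.14, 5.95 and 4.70 CPM in LV-MEIS1 (-1.77 ± 0.11, limma treat adjusted p = 2.1e-06), and CNTN3, another contactin, went from 4.29 ± 0.42 to 1.15 ± 0.0697 CPM (SD). CNTNAP2, a contactin-associated protein of the node of Ranvier, was 29.9, 20.8 and 19.8 CPM in Control and 10.2, 5.87 and 2.202 CPM in LV-MEIS1. Its LV-MEIS1 libraries spread more than 4-fold, the log2 fold change was -2.05 ± 0.34 (adjusted p = 0.011), and the call was lost without Control replicate 1 (-1.87, adjusted p = 0.063).

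Protocadherins, whose clustered genes lie on chromosome 5, had a median of 0.25 over 62 listed members. Only 3 were called higher and 1 lower, but 26 of the 62 had all LV-MEIS1 libraries above all Control libraries, against 26.3% of all genes, and 7 had them below. PCDHB5 was 3.31, 3.27 and 2.54 CPM in Control and 17.5, 17.2 and 18.2 CPM in LV-MEIS1 and PCDH10, which lies outside the clusters, was 1.803, 1.64 and 1.39 CPM in Control and 9.08, 7.64 and 8.22 CPM in LV-MEIS1. PCDHA10 rose by 1.13 ± 0.08 on the log2 scale and shares its 3′ exons with all genes of the α cluster, so that its value is uncertain, as are those of the near-identical β genes. PCDH1 fell from 11.1 ± 1.89 to 3.901 ± 0.63 CPM (SD).

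**Figure D4:**
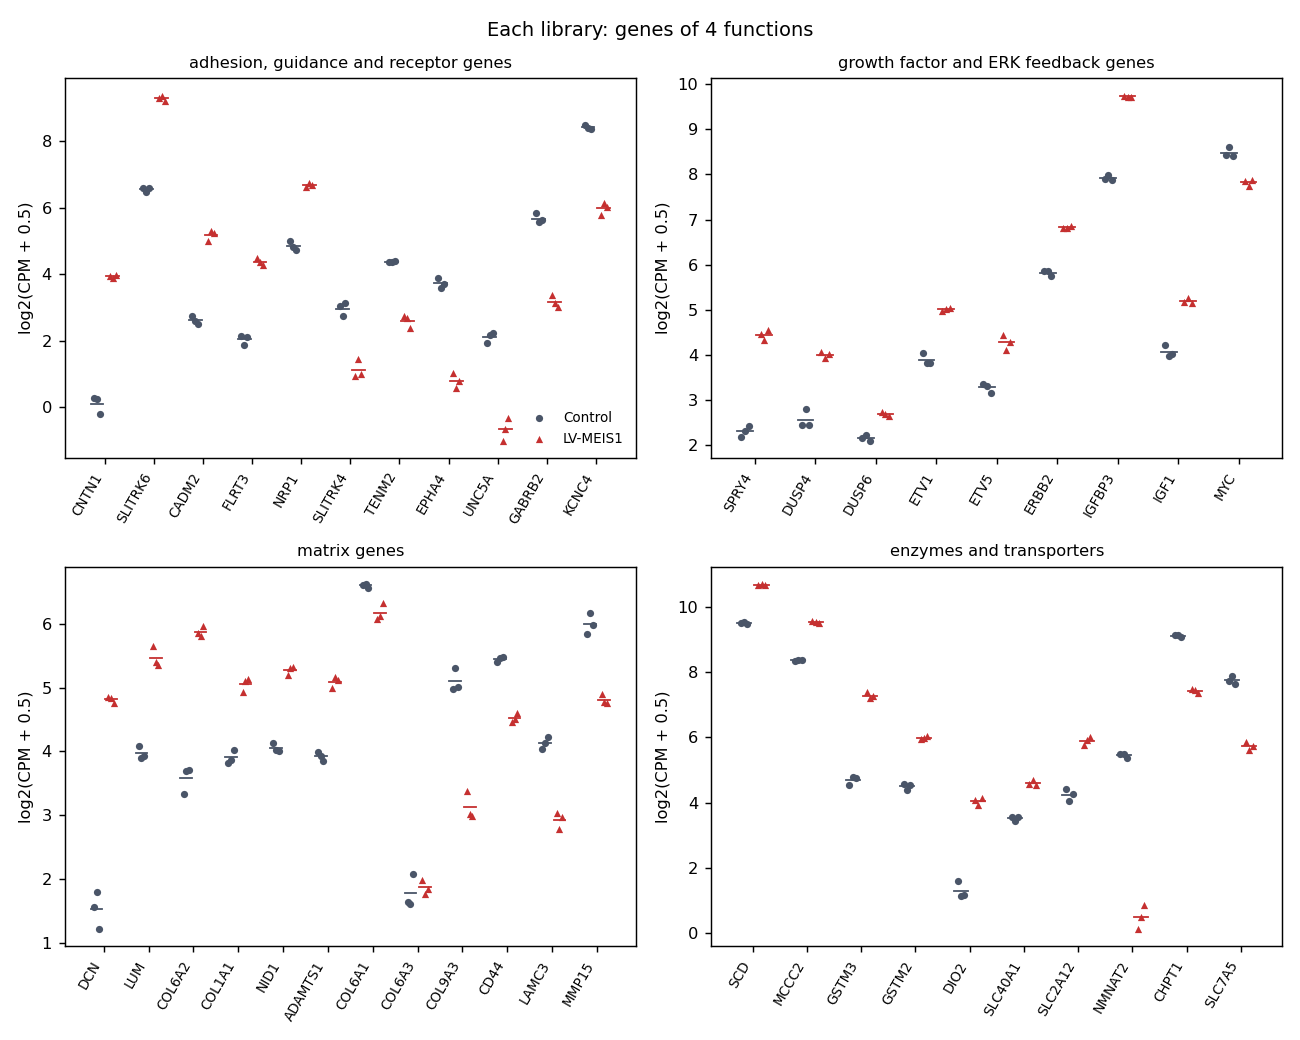
Values of each library as log2(CPM + 0.5) for genes of 4 functions, with Control as grey circles, LV-MEIS1 as red triangles and bars at the group means. CNTN1, SLITRK6, CADM2, FLRT3 and NRP1 lie higher in LV-MEIS1 and SLITRK4, TENM2, EPHA4 and UNC5A lower. SPRY4, DUSP4 and IGFBP3 lie higher, and COL6A2 lies higher while COL6A1 lies lower and COL6A3 overlaps.

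Axon guidance genes fell in 9 and rose in 3 of 59 cases (20.3% called), with a median of -0.06. EPHA4, a receptor for ephrins of both classes, was 14.4, 11.6 and 12.6 CPM in the Control libraries and 1.55, 0.984 and 1.22 CPM in the LV-MEIS1 libraries. On the log2 scale the change was -2.93 ± 0.16 (limma treat adjusted p = 5.2e-08). EFNA5, a ligand of EPHA receptors, went from 30.5 ± 0.34 to 14.3 ± 0.94 CPM (SD), and EPHB3 from 23.5 ± 1.25 to 11.5 ± 1.26 CPM. UNC5A, a netrin receptor, was 3.31, 4.02 and 4.16 CPM in Control and 0, 0.141 and 0.296 CPM in LV-MEIS1, at or below the value of 3 reads in 2 LV-MEIS1 libraries. SEMA4A, a membrane-bound semaphorin, was 56.1, 63.7 and 59.1 CPM in Control and 18.9, 19.7 and 19.02 CPM in LV-MEIS1. NRP1, the coreceptor for class 3 semaphorins and for VEGF, was the clearest exception, with 31.4, 27.9 and 26.04 CPM in the Control libraries and 99.2, 107 and 102 CPM in the LV-MEIS1 libraries, a log2 fold change of 1.84 ± 0.07 (adjusted p = 5.6e-09). SEMA3D, a class 3 semaphorin, rose from 1.58 ± 0.17 to 4.89 ± 0.17 CPM, and SEMA3F of the same class fell from 9.18 ± 0.66 to 3.52 ± 0.79 CPM.

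Genes that androgens induce in prostate epithelium were mostly lower. Of 32 listed 9 fell and 2 rose (34.4% called), 20 had all LV-MEIS1 libraries below all Control libraries, against 25.1% of all genes, and the median was -0.41. SLC45A3, known as prostein, was 151, 178 and 150.4 CPM in the Control libraries and 23.5, 20.95 and 23.02 CPM in the LV-MEIS1 libraries. Its log2 fold change was -2.80 ± 0.07 (limma treat adjusted p = 2.1e-11), and the groups did not overlap. STEAP2, a metalloreductase of the prostate cell surface, was 524, 411 and 472 CPM in Control and 122.7, 124.1 and 110.3 CPM in LV-MEIS1. Its neighbour STEAP1, outside the lists and chosen after its values were seen, was 166, 161 and 156 CPM in Control and 29.5, 25.8 and 25.9 CPM in LV-MEIS1, a log2 fold change of -2.55 ± 0.06 (adjusted p = 1.2e-11).

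Kallikreins, the secreted proteases of seminal fluid, were lower to different degrees. KLK4 was 479, 546 and 541 CPM in Control and 214, 194 and 217 CPM in LV-MEIS1 and KLK2 was 282, 285 and 295 CPM in Control and 112, 109 and 106 CPM in LV-MEIS1, and both fell, with log2 fold changes of -1.32 and -1.40 (limma treat adjusted p = 5.2e-06 and 2.7e-07). KLK3, which encodes prostate-specific antigen, was 178, 173 and 195 CPM in Control and 107, 109 and 110.00 CPM in LV-MEIS1, a difference of -0.74 ± 0.07 that was not called (adjusted p = 0.422) and passed eBayes (adjusted p = 1.5e-06). Reads of these neighbouring paralogs may be divided between them. FKBP5, a chaperone induced by steroid receptors, went from 415 ± 7.54 to 235 ± 12.9 CPM (SD), NDRG1 from 53.7 ± 3.15 to 12.8 ± 0.88 CPM and the lipid phosphatase PLPP1 from 177 ± 8.52 to 48.2 ± 3.36 CPM. TMPRSS2, an androgen-induced serine protease, was 39.5, 46.1 and 43.1 CPM in Control and 40.5, 41.8 and 42.9 CPM in LV-MEIS1, with overlapping groups.

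Transcription factors of luminal cells gave a different account. FOXA1, a pioneer factor that opens chromatin at androgen-responsive genes, was 387, 395 and 376 CPM in Control and 517, 494 and 511 CPM in LV-MEIS1, higher in every LV-MEIS1 library and not called (0.39 ± 0.05, limma treat adjusted p = 1, eBayes 2.0e-05). NFIX, a nuclear factor of the NFI family, was 895, 971 and 883 CPM in Control and 485, 467 and 507 CPM in LV-MEIS1 and was among the 6 largest falls in CPM. The members of the androgen list that rose were PART1, a prostate long noncoding RNA, from 12.5 ± 0.62 to 44.7 ± 2.54 CPM (SD), and TARP, from 21.8 ± 2.36 to 61.7 ± 4.39 CPM. TARP is transcribed from T cell receptor gamma segments that resemble each other, which leaves its level uncertain.

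Enzymes that make and clear androgens rose in 3 of 11 cases and fell in 1. AKR1C3, which reduces androstenedione to testosterone, was 18.9, 21.3 and 19.1 CPM in the Control libraries and 53.5, 49.5 and 47.2 CPM in the LV-MEIS1 libraries, a log2 fold change of 1.32 ± 0.07 (limma treat adjusted p = 2.6e-06). UGT2B15, which attaches glucuronic acid to androgens and so inactivates them, was 8.403, 4.72 and 7.11 CPM in Control and 24.1, 23.8 and 19.4 CPM in LV-MEIS1 (1.69 ± 0.20, adjusted p = 0.0013). UGT2B10 rose from 1.38 ± 0.25 to 4.05 ± 0.38 CPM (SD), and the closely similar UGT2B17 was 0.8496, 0.847 and 0.534 CPM in Control and 2.92, 2.22 and 2.17 CPM in LV-MEIS1, a difference of 1.24 ± 0.20 that was not called (adjusted p = 0.071) except with a pseudocount of 0.1 or eBayes, with reads of the family not cleanly separable. STS, which frees steroids from their sulfates, fell from 25.5 ± 1.39 to 13.5 ± 0.57 CPM.

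Beyond decorin and lumican, matrix genes split. The fibroblast marker sum given above includes DCN, LUM, COL1A1 and COL6A3, so it is no separate measure beside them. Of 19 collagens 2 rose and 2 fell with a median of 0.04, and the lower count was 1 without Control replicate 1 or 2 or LV-MEIS1 replicate 1 or 2. COL6A2, the α2 chain of collagen VI, was 9.54, 12.5 and 12.5 CPM in the Control libraries and 57.3, 55.4 and 61.7 CPM in the LV-MEIS1 libraries. On the log2 scale it rose by 2.30 ± 0.11 (limma treat adjusted p = 3.7e-08). Its partners did not share this, as COL6A1 was 97.4, 97.8 and 94.2 CPM in Control and 67.2, 69.04 and 79.3 CPM in LV-MEIS1 and COL6A3 was 2.63, 2.54 and 3.72 CPM in Control and 3.47, 2.92 and 3.09 CPM in LV-MEIS1. COL1A1, the α1 chain of collagen I, rose from 14.5 ± 1.101 to 32.8 ± 2.46 CPM (SD), with its partner COL1A2 not listed. COL9A3, a cartilage collagen chain, fell from 33.9 ± 4.48 to 8.33 ± 1.41 CPM.

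Of 8 laminins and nidogens 3 rose and 1 fell, with a median of 0.38, and the higher count was 1 without any 1 of the Control libraries or LV-MEIS1 replicate 2 or 3, and 2 without LV-MEIS1 replicate 1. By eBayes 6 were higher and 1 lower. NID1, which links laminin to collagen IV, was 17.04, 15.7 and 15.5 CPM in the Control libraries and 36.2, 39.1 and 39.4 CPM in the LV-MEIS1 libraries, with all LV-MEIS1 libraries above Control. LAMC3, a laminin γ chain, went from 17.01 ± 1.15 to 7.15 ± 0.65 CPM (SD). Of 35 matrix proteases and inhibitors 1 rose and 2 fell. ADAMTS1, a protease that cleaves large proteoglycans, rose from 14.7 ± 0.80 to 33.6 ± 2.07 CPM. MMP15, a membrane-bound metalloproteinase, fell from 63.4 ± 7.24 to 27.5 ± 1.61 CPM. Of 21 proteoglycan core proteins 3 rose and 3 fell, with 1 lower without Control replicate 1 or LV-MEIS1 replicate 3. CD44, the hyaluronan receptor, was 41.5, 43.7 and 44.03 CPM in Control and 21.6, 22.2 and 23.7 CPM in LV-MEIS1 and fell (log2 fold change -0.93, limma treat adjusted p = 4.1e-04). None of 19 genes in the integrin list was called. All LV-MEIS1 libraries lay above Control for 11 of them, against 26.3% of all genes, and the median was 0.39. The list was made by symbol and includes ITGB1BP1 and ITGB3BP, which are not integrin chains. ITGA5, the fibronectin receptor chain, was 16.4, 17.5 and 17.04 CPM in Control and 30.7, 29.3 and 31.2 CPM in LV-MEIS1, a difference of 0.82 ± 0.08 (adjusted p = 0.079, eBayes 7.8e-07) that was called with the libraries scaled to an equal sum.

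Cadherin and filament genes that mark epithelial or mesenchymal states did not shift together. CDH1, the epithelial cadherin, was 359, 348 and 327 CPM in Control and 377, 393 and 396 CPM in LV-MEIS1 and was not called. CDH2, N-cadherin, rose, with 6.28, 5.54 and 6.05 CPM in Control and 14.3, 15.9 and 15.99 CPM in LV-MEIS1 (1.30 ± 0.10, limma treat adjusted p = 9.9e-05). VIM, the mesenchymal filament vimentin, fell, with 14.6, 14.2 and 10.8 CPM in Control and 4.42, 3.46 and 3.75 CPM in LV-MEIS1 (-1.64 ± 0.16, adjusted p = 2.5e-04), and its exons overlap those of the antisense VIM-AS1. CDH6, a cadherin of the kidney, was 55.2, 45.2 and 46.1 CPM in Control and 2.42, 3.47 and 3.48 CPM in LV-MEIS1, a 15.6-fold lower mean, and DSC2, a desmosomal cadherin, rose from 12.5 ± 2.70 to 31.1 ± 2.36 CPM (SD). The keratins KRT8 and KRT18 and the adhesion molecule EPCAM overlapped between the groups, with log2 differences of -0.13, -0.02 and -0.01.

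Several feedback genes of the ERK pathway rose. Growth factor receptors signal through RAF, MEK and ERK, and sprouty and dual-specificity phosphatase genes are induced by ERK and restrain it. Of 31 EGFR and MAPK feedback genes 5 rose and 1 fell (19.4% called), with a median of 0.18. By eBayes 14 of the 31 were higher and 9 lower. ERBB2, a receptor described below, was 1 of the 5 that rose. The 1 fall, of a dual-specificity phosphatase gene (log2 fold change -1.14), was not called without Control replicate 2 or LV-MEIS1 replicate 3. SPRY4, a sprouty protein, was 4.07, 4.496 and 4.86 CPM in the Control libraries and 21.5, 19.7 and 23.1 CPM in the LV-MEIS1 libraries, a 4.79-fold rise of the mean (log2 fold change 2.14 ± 0.11, limma treat adjusted p = 1.1e-07). DUSP4, a nuclear phosphatase of ERK, was 4.94, 6.53 and 4.97 CPM in Control and 16.2, 14.8 and 15.7 CPM in LV-MEIS1 (1.44 ± 0.11, adjusted p = 6.0e-05). ETV1, an ETS factor downstream of ERK, was 16.05, 13.5 and 13.6 CPM in Control and 31.2, 31.8 and 32.2 CPM in LV-MEIS1 (1.12 ± 0.08, adjusted p = 1.5e-04). Its relative ETV5 went from 9.22 ± 0.65 to 18.998 ± 2.23 CPM (SD, adjusted p = 0.023), a call that was lost without Control replicate 3 (adjusted p = 0.119), LV-MEIS1 replicate 1 (0.136) or LV-MEIS1 replicate 3 (0.0753). Among the members not called, DUSP6 differed by 0.53, SPRY1 by 0.18 and SPRY2 by 0.15 on the log2 scale. In the list 15 members had all LV-MEIS1 libraries above all Control libraries and 9 had them below.

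Receptors and ligands gave a mixed account. ERBB2 was 57.4, 58.01 and 53.1 CPM in the Control libraries and 111, 113 and 116 CPM in the LV-MEIS1 libraries and rose by 1.01 ± 0.07 on the log2 scale (limma treat adjusted p = 6.4e-04), and its exons overlap those of MIEN1 on the other strand. EGFR was 56.3, 54.3 and 53.5 CPM in Control and 37.9, 46.9 and 44.999 CPM in LV-MEIS1 and ERBB3 184, 183 and 185 CPM in Control and 163, 168 and 159 CPM in LV-MEIS1, neither called. IGFBP3, which binds insulin-like growth factors and limits their access to the receptor, was 237, 253 and 236 CPM in the Control libraries and 858, 840.1 and 845 CPM in the LV-MEIS1 libraries, a 3.51-fold rise (adjusted p = 5.2e-10). IGF1, its ligand, rose from 16.3 ± 1.499 to 36.2 ± 1.59 CPM (SD). IGF1R, the receptor, fell from 41.9 ± 2.47 to 18.7 ± 1.97 CPM (-1.14 ± 0.07, adjusted p = 7.7e-05). IGF1R lies in a stretch of distal 15q, taken from RPP25 to TARSL2 (chromosome 15, 74954418 to 101724473). There 106 of 110 genes with at least 5 CPM were lower, against 48.1% of all other genes, and the median was -0.58. The ends of the stretch were chosen with earlier results of these data known, so its counts describe it and are no test. Of 139 listed genes in that stretch 25 were called lower and 0 higher, and the part of the stretch in the fall of IGF1R was not tested. GFRA1, a coreceptor for GDNF, went from 2.74 ± 0.56 to 0.416 ± 0.17 CPM. MYC was 346, 389 and 339.8 CPM in Control and 230.5, 214 and 235 CPM in LV-MEIS1 and CDKN1A 112, 123.00 and 108 CPM in Control and 74.2, 65.4 and 74.1 CPM in LV-MEIS1, lower in every LV-MEIS1 library and not called.

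Of 47 Wnt pathway genes 3 rose and 2 fell (10.6% called), and the lower count was 1 without any 1 library. Of 46 TGF-beta and BMP genes 3 fell and none rose (6.52%), with 1 higher without Control replicate 1, and of 24 Notch genes 1 rose and 1 fell (8.33%). NOTUM, a secreted enzyme that inactivates Wnt proteins, was 28.7, 37.9 and 30.6 CPM in the Control libraries and 4.87, 5.02 and 5.55 CPM in the LV-MEIS1 libraries, a log2 fold change of -2.53 ± 0.10 (limma treat adjusted p = 3.2e-09), and FZD8, a Wnt receptor, rose, with 32.97, 41.5 and 33.3 CPM in Control and 92.03, 77.7 and 94.8 CPM in LV-MEIS1. INHBB, a subunit of activin and inhibin, fell from 30.8 ± 3.68 to 9.84 ± 0.23 CPM (SD), and the BMP receptor BMPR1B from 12.9 ± 1.44 to 5.41 ± 0.84 CPM. GPER1, a membrane receptor that responds to oestrogen, was 72.1, 82.6 and 72.3 CPM in the Control libraries and 3.49, 3.797 and 3.74 CPM in the LV-MEIS1 libraries, a 20.6-fold lower mean with the lowest p of all genes with the largest falls (adjusted p = 7.5e-14). MCF2L, a guanine nucleotide exchange factor, rose from 1.64 ± 0.32 to 19.4 ± 1.32 CPM. PLK2, a kinase induced by p53, was the 1 gene called of 31 p53 targets, from 1.58 ± 0.37 to 6.75 ± 0.92 CPM. Interferon and antigen presentation genes had a median of 0.31 over 36 members with 1 called, IFI44L, from 13.2 ± 0.85 to 34.1 ± 1.85 CPM. All LV-MEIS1 libraries lay above all Control libraries for 17 of the 36, against 26.3% of all genes, and below for 5. By eBayes 16 were higher and 4 lower.

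MEIS1's own class of factors included further rises. Of 11 listed TALE genes 3 rose, MEIS1 among them, and none fell. IRX5, of the Iroquois branch, was 29.8, 32.3 and 27.1 CPM in the Control libraries and 78.4, 72.5 and 80.7 CPM in the LV-MEIS1 libraries (1.36 ± 0.08, limma treat adjusted p = 2.7e-06). PBX3 was 16.9, 16.7 and 16.2 CPM in Control and 14.997, 13.1 and 12.1 CPM in LV-MEIS1 and was not called. PBX2 was 24.95, 39.3 and 20.9 CPM in Control and 63.3, 19.7 and 49.1 CPM in LV-MEIS1, and libraries of the same group differed by as much as the groups did.

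Of 139 other developmental transcription factors 6 rose and 5 fell, and the lower count was 3 without Control replicate 2 or 3 and 4 without any 1 of the others. SOX2, a factor of progenitor cells, was 1.105, 1.82 and 1.27 CPM in the Control libraries and 5.53, 5.67 and 6.99 CPM in the LV-MEIS1 libraries, a 4.34-fold rise of a low transcript (limma treat adjusted p = 3.9e-05). KLF9, a steroid- and thyroid-hormone-responsive factor, was 9.303, 10.4 and 8.21 CPM in Control and 24.7, 26.2 and 24.7 CPM in LV-MEIS1, and KLF12, a repressor, went from 6.23 ± 0.96 to 16.5 ± 2.495 CPM (SD). ELF5, an ETS factor of secretory epithelium, fell from 8.195 ± 0.77 to 2.96 ± 0.0803 CPM. PHF21B, a PHD finger protein, was 8.31, 11.4 and 10.3 CPM in Control and 0.111, 0.187 and 0.185 CPM in LV-MEIS1, near the value of 3 reads in LV-MEIS1. ARNT2, a bHLH-PAS partner factor of neurons, fell from 8.99 ± 1.49 to 0.548 ± 0.15 CPM and lies in the stretch of distal 15q described for IGF1R, whose part in its value was not tested.

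Metabolic enzymes gave several of the largest changes in CPM. SCD, which puts the double bond into stearic and palmitic acid, was 729, 748 and 714 CPM in the Control libraries and 1639, 1655 and 1614 CPM in the LV-MEIS1 libraries. It had the largest rise in CPM of all called genes (log2 fold change 1.16 ± 0.05, limma treat adjusted p = 2.7e-07). MCCC2, a subunit of the leucine-degrading methylcrotonyl-CoA carboxylase, was 326, 329.8 and 330.2 CPM in Control and 751, 744 and 734 CPM in LV-MEIS1 (1.18 ± 0.04, adjusted p = 7.0e-08). CHPT1, which makes phosphatidylcholine and is known as an androgen-responsive gene, was 563, 561 and 539.5 CPM in Control and 179, 173 and 165 CPM in LV-MEIS1 and fell (-1.68 ± 0.05, adjusted p = 1.4e-09), with exons that overlap SYCP3.

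Of 51 cytochromes P450, aldehyde and aldo-keto enzymes, glutathione transferases and related redox enzymes 4 rose, 1 fell and 46 were not called, and the lower count was 2 without Control replicate 1 and 0 without any 1 of the others. GSTM3, a glutathione transferase, was 22.8, 27.04 and 26.6 CPM in the Control libraries and 166, 147 and 153 CPM in the LV-MEIS1 libraries, and its relative GSTM2 was 23.3, 20.4 and 22.8 CPM in Control and 61.3, 62.4 and 64.8 CPM in LV-MEIS1. Both rose, by 2.59 and 1.48 on the log2 scale (limma treat adjusted p = 1.0e-10 and 3.8e-06), and reads of this cluster may be divided between near-identical members. DIO2, the deiodinase that makes active thyroid hormone, was 2.56, 1.69 and 1.77 CPM in Control and 16.3, 14.8 and 17.1 CPM in LV-MEIS1. Of 37 hypoxia and glycolysis genes 1 rose and 1 fell, NDRG1 being the lower one. EGLN3, a prolyl hydroxylase that marks hypoxia-inducible factors for decay, rose from 2.78 ± 0.64 to 13.5 ± 0.59 CPM (SD).

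Transporters as a class stayed near the background, with 4 of 253 higher and 7 lower. SLC7A5, the large neutral amino acid carrier, was 211, 236 and 199 CPM in the Control libraries and 57.5, 48.2 and 52.6 CPM in the LV-MEIS1 libraries, a log2 fold change of -2.02 ± 0.08 (limma treat adjusted p = 5.3e-09), and it was the 1 gene called of 37 ATF4 targets. SLC6A17, a synaptic vesicle carrier of neutral amino acids, fell from 9.303 ± 0.39 to 1.29 ± 0.0804 CPM (SD). SLC40A1, the iron exporter ferroportin, rose from 10.96 ± 0.54 to 23.8 ± 1.56 CPM, and SLC2A12, a glucose transporter whose exons overlap TBPL1, from 18.6 ± 2.38 to 59.4 ± 5.07 CPM. NMNAT2, the axonal enzyme of NAD synthesis, had the lowest log2 fold change of all called genes (-4.97 ± 0.16), while no other of 22 NAD genes was called. Without Control replicate 1 the lower count of that list was 2.

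The remaining genes with the largest folds do not share a function known from the lists. TMTC1, a mannosyltransferase of cadherins, was 6.11, 5.47 and 5.94 CPM in the Control libraries and 50.8, 49.5 and 45.998 CPM in the LV-MEIS1 libraries. ARSJ, an arylsulfatase, was 4.14, 2.99 and 3.75 CPM in Control and 28.1, 30.7 and 30.95 CPM in LV-MEIS1. PRSS23, a secreted serine protease, was 17.1, 15.2 and 13.2 CPM in Control and 100.2, 97.8 and 98.01 CPM in LV-MEIS1, and its exons overlap those of FZD4 on the other strand. CA8, a carbonic anhydrase-related protein that binds the IP3 receptor, rose from 2.59 ± 0.41 to 17.7 ± 1.49 CPM (SD). On the lower side, PHYHD1, a dioxygenase, went from 17.04 ± 0.90 to 0.741 ± 0.28 CPM and the noncoding LOC200772 from 15.8 ± 2.08 to 0.6496 ± 0.18 CPM. HBA2, an α-globin nearly identical to HBA1, fell below the value of 3 reads in every LV-MEIS1 library, at least 89.7-fold lower, and its value is uncertain. MIA3, which exports collagen from the endoplasmic reticulum, had the sixth largest rise in CPM, with 173, 154 and 172 CPM in Control and 291, 328 and 303 CPM in LV-MEIS1, and its call was lost without Control replicate 2 (log2 fold change 0.83, adjusted p = 0.065) or LV-MEIS1 replicate 2 (0.836, adjusted p = 0.0738).

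The same named genes were set beside the pair of lines labelled HOXB13ko, where MEIS1 mRNA also rose, by 2.90 on the log2 scale. HOXB13 mRNA averaged 326.7 ± 20.1 CPM (SD) in the libraries labelled HOXB13ko, more than in Control. An mRNA level does not measure the protein, whose loss the paper reports by western blot. These data hold no protein values, so the pair is given by label only. Of 72 named genes called higher apart from MEIS1, the medians of the log2 fold change were 1.37 with HOXB13 intact and 0.03 in the labelled pair. Of 69 called lower the medians were -1.97 and -0.01. The labelled pair ranged from -0.91 (GABBR1) to 0.58 (SEMA3D), and 135 of these 141 genes stayed within 0.5 of 0. Levels of these genes in the line labelled HOXB13ko are not given here, and a gene already at the floor there could not fall further. A small change in the labelled pair therefore does not by itself show that an effect of MEIS1 was lost. Genes chosen for a large change in the first pair show an inflated difference. In a direct test of that difference by limma treat, 113 of the 141 were called, against 2.93% of all genes, and MEIS1 was not. In the labelled pair the same test called 1 gene (0.00717%), MEIS1.

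**Figure D5:**
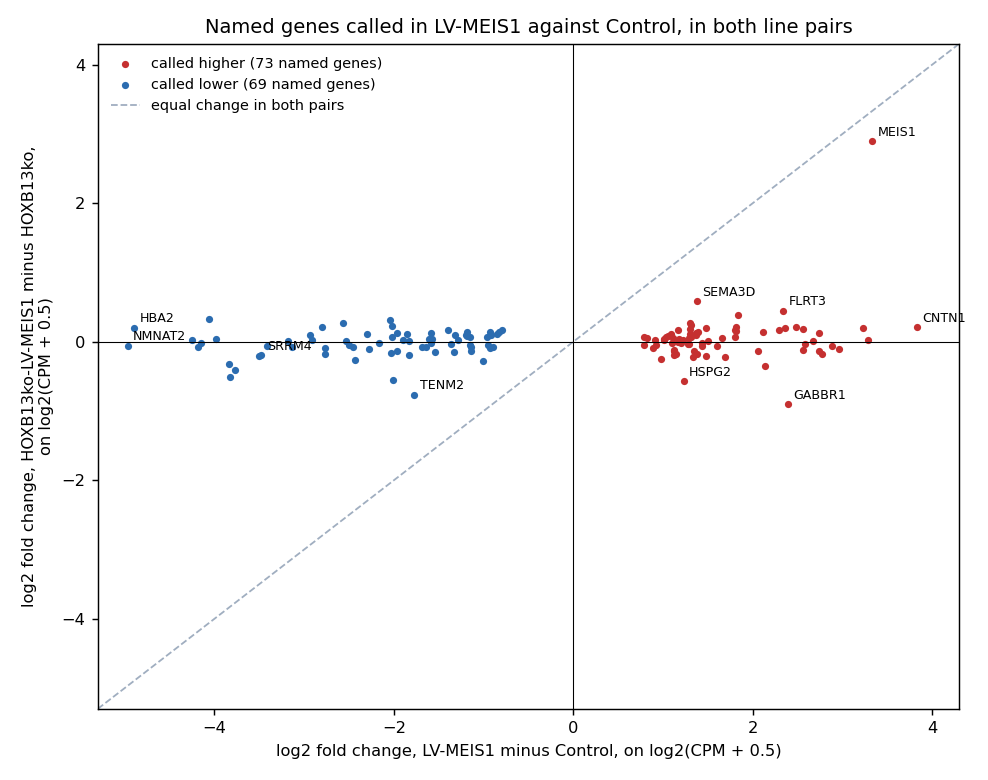
Each point is a named gene called in LV-MEIS1 against Control, with its log2 fold change there on the horizontal axis and in HOXB13ko-LV-MEIS1 against HOXB13ko on the vertical axis, both on log2(CPM + 0.5), and the dashed line marks equal change. MEIS1 lies near the line at 3.33 and 2.90, and the other 141 genes lie between -0.91 and 0.58 on the vertical axis.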

How the data were processed

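Poly(A)-selected RNA of 12 libraries (KAPA stranded kit, single-end reads of 50 bp) was sequenced by the authors. The deposited values are CPM, which the authors made by base calling (CASAVA 1.8, per the submitters' processing notes), trimming (Trimmomatic 0.38), assignment to Ensembl transcripts of GRCh38 (kallisto 0.43.1), summing to genes (tximport), removing genes with few counts and normalising in edgeR 3.22.2. Genes under that filter are not listed, so that a gene not listed may still be expressed at a low level. Whether strand was used is not given in the sources used here, and reads that fit several transcripts are divided by kallisto, so overlapping genes and near-identical copies are uncertain.

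From 13993 lines per file 42 exact repeats were dropped, which left 13951 genes. Depth is not stated, and 48.1% to 60.2% of values under 1 CPM in the 6 libraries lay within 0.1 of whole multiples of the step that gave the depth estimates, so reads were not recovered and no count model was used. Linear models on log2(CPM + 0.5), a scale that understates changes of low genes, with a mean per group over 12 libraries were computed by limma 3.58.1 under R 4.3.3. Genes were called by treat against a 1.5-fold change (prior with trend) at a Benjamini-Hochberg adjusted p under 0.05, and eBayes tested against no change. Errors beside fold changes are SE and those beside CPM are SD, with n = 3 libraries per group. The difference of the MEIS1 effects is (LV-MEIS1 minus Control) minus (HOXB13ko-LV-MEIS1 minus HOXB13ko), tested likewise. The fits were tested on simulated data with normal noise on the log2 scale, in which 200 genes were changed in LV-MEIS1. Of the 4-fold changes 99% were called and of the 2-fold changes 76%, with 0 unchanged genes called. A gene that was not called may therefore still have changed, and the simulation holds no differences of derivation or read assignment.

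Genes were named by a rule: MEIS1, HOXB13, DCN, LUM and cell type markers, the 15 highest and 15 lowest log2 fold changes and the 6 largest rises and falls in CPM among called genes with at least 5 CPM in the higher group and no overlap, and up to 4 highest and 4 lowest called genes per list, with other list members named for their role. Some genes that this rule names are not reported here. The compared libraries, lists and rules were chosen with earlier results of these data known. Alternatives were other pseudocounts (0.1 and 1), scalings, a minimum mean of 1 CPM, eBayes, an adjusted p under 0.01, a fit of 6 libraries, a replicate block and leaving out each library. Positions came from GENCODE for 13663 genes (97.9%), 456 through an older symbol. Promoter windows are from RefSeq (GRCh38.p14). Figures used matplotlib 3.10.9 in Python 3.11.15.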

Additional observations from a re-analysis of the deposited data

Results flagged for a closer look

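The change with MEIS1 differed between LV-MEIS1 against Control and the HOXB13ko lines by limma's treat test of the difference itself (409 genes, 2.93%). Among the 30 genes with the largest folds, 29 were among them. These genes were chosen for a large change in part of the same difference, which inflates it, and the pairs also differ in MEIS1 level. Levels of these genes in the HOXB13ko line are not given here, and a gene already at the floor there could not fall further. Among adhesion and receptor genes the log2 difference was 3.62 for CNTN1, 2.86 for SLITRK6, 2.37 for CADM2 and 3.30 for GABBR1. Among enzymes it was 2.95 for ARSJ, 2.61 for DIO2, 2.66 for PRSS23, 2.62 for GSTM3 and 3.06 for TMTC1, and it was 2.69 for CA8, 3.03 for MCF2L and 3.26 for DCN.

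Among genes that fell, the difference was -3.28 for SRRM4, -3.35 for SCG3, -3.06 for CHGB, -4.27 for SEZ6 and -4.13 for CPLX2. The receptors gave -4.39 for CHRNB2 and -4.11 for GPER1. It was -4.91 for NMNAT2, -3.52 for PHYHD1, -4.02 for PHF21B, -3.18 for ARNT2, -3.37 for CDH6, -3.31 for LOC200772 and -5.10 for HBA2, the last with reads shared with HBA1. ARNT2 lies in the run of lower genes on distal 15q, and the part of that run in its value was not tested.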

How the results depend on the processing

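Over 16 alternatives, no call changed direction among the 142 called genes chosen by fold, change in CPM or rank in a list, and 117 remained called in all of them. Of 17 further called genes named for their role, 15 remained called in all, the exceptions being ETV5 and KCNJ9, and none changed direction. The test moved the counts most: eBayes against no change called 6207 genes (3236 higher, 2971 lower) and 4771 in the difference of the MEIS1 effects. An adjusted p under 0.01 left 425 genes and moved the difference to 272. The other settings with all libraries gave 499 (pseudocount 1) to 608 (pseudocount 0.1) genes and 356 to 436 in the difference, with 506 in a fit of the 6 libraries. Other scalings shifted the all-gene median by 0.0165 at most on the log2 scale. Leaving out a library gave 471 to 532 genes (198 to 236 higher, 261 to 296 lower) and 345 to 392 in the difference. Deviations of replicates with the same number had correlations of -0.157, -0.289 and 0.044, and those with different numbers -0.208 to 0.312. With 3 libraries per group these values cannot decide whether the numbers pair the samples. A replicate block called 522 genes (231 higher, 291 lower) and 356 in the difference. Depth limits values under about 0.175 CPM, where 3 reads cannot be told from none.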

Other observations

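Zinc finger genes, a family of mostly repressive transcription factors with many members on chromosome 19, were examined after their values had been seen, and no test was made. Of 469 genes with a ZNF symbol 5 were called higher and 1 lower, but 186 (39.7%) passed limma's eBayes test as higher, against 23.2% of all genes, and 28 (5.97%) as lower, against 21.3%. Their median log2 fold change was 0.20, with 0.25 for the 236 on chromosome 19 and 0.15 for the 233 elsewhere. Their median in the pair labelled HOXB13ko was -0.05. These sizes are below the 1.5-fold threshold of the calls.

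Some genes with large differences were not called and had libraries of the same group that disagreed, and they were chosen after their values were seen. LPAR4, a lysophosphatidic acid receptor, was 4762, 22.1 and 6697 CPM in Control and 4567, 1867 and 3758 CPM in LV-MEIS1, with Control replicate 2 far below the other 5 libraries. RING1, a Polycomb protein, was 54.8, 66.7 and 2.33 CPM in Control and 0.288, 50.2 and 0.00195 CPM in LV-MEIS1, and it was called lower without LV-MEIS1 replicate 2. The heat shock gene HSPA1A, a near-identical copy of HSPA1B, was 0.868, 21.3 and 17.2 CPM in Control and 33.1, 20.6 and 26.9 CPM in LV-MEIS1. The cause of these spreads was not tested.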
